A study of Gallus gallus with 2 samples.

Results

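The genes described here encode chromatin modifying and remodelling proteins. They were chosen by symbol: every gene whose symbol begins with KDM, KMT, SETD, HDAC, KAT, CHD or ARID and a digit, or with SMARC and a letter from A to E. The rule found 65 of 16736 genes, each annotated at a single locus, and 64 of them reached 1 FPKM in at least 1 library. FPKM counts sequenced fragments scaled to transcript length and library size, so it can be compared between genes of different length. The gene outside this limit was KDM1B, with 0.881 FPKM with thalidomide and 0.587 FPKM with vehicle, and the least abundant gene inside it was SETD4, with 1.55 FPKM with thalidomide and 1.84 FPKM with vehicle.

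The tissue was limb bud of chick embryos at Hamburger-Hamilton stage 22 (day 4), cut into pieces and kept for 4 h at 37 °C. One library came from pieces given thalidomide at 40 µg/ml and the other from pieces given vehicle, 5% DMSO. The labels name no strain, and do not say how many embryos went into a library or whether the thalidomide pieces also received DMSO. With 1 library per treatment no test was possible and nothing here was checked in a replicate. A ± beside a log2 ratio was carried over from the deposited confidence limits. It holds the counting and assignment error inside each library, not the spread between embryos or cultures.

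DNA in the nucleus is wound on histones, and these enzymes decide how open it is. Acetyltransferases (KAT) add acetyl groups that go with active genes, and deacetylases (HDAC) remove them. SET domain proteins (KMT, SETD) add methyl groups to histone lysines and demethylases (KDM) take them off, with outcomes that depend on the lysine: methylation of lysine 4 of histone H3 (H3K4) marks enhancers and promoters in use. Remodellers use ATP to slide or evict nucleosomes. The CHD and SMARCA proteins are the ATPases, and the other SMARC and some ARID proteins are subunits of such complexes. In the limb bud such proteins act on the enhancers and HOX genes that pattern the limb. The roles given below are known mostly from mammals.

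The inferred fragments behind the values, read from the width of the deposited confidence limits, summed to 23260862 with thalidomide and 23342008 with vehicle. The FPKM values summed to 384280 with thalidomide and 426632 with vehicle, a gap of 0.15 on the log2 scale, so directions close to 0 depend on how the libraries are scaled. Among markers of limb mesenchyme, 10 of 11 reached 1 FPKM, led by PRRX1 with 185 FPKM with thalidomide and 217 FPKM with vehicle. HOXA11 was listed at 0 in both, at an annotated locus of 306.5 kb, against 1.83 kb for HOXD11. Whether that entry measures the gene was not tested, so the 0 does not show that HOXA11 was absent. Markers of other cell types were also present: the summed FPKM of early cartilage was 572 with thalidomide and 676 with vehicle, and that of limb ectoderm 89.99 with thalidomide and 109 with vehicle. Neural markers summed to 74.7 with thalidomide and 88.5 with vehicle, and endothelial markers to 51.1 with thalidomide and 59.4 with vehicle. Muscle markers summed to 36.1 with thalidomide and 39.5 with vehicle, and macrophage markers to 11.5 with thalidomide and 12.8 with vehicle. The red blood cell sum was higher with thalidomide, at 272 FPKM against 196 FPKM with vehicle. The other sums were lower as deposited, but with equal FPKM totals the muscle sum was 38.1 with thalidomide and 37.5 with vehicle, and with totals taken without mitochondrially encoded and haemoglobin genes the macrophage sum was also higher with thalidomide. Their part in the ratios below was not tested. In bulk tissue, fewer cells of a type and less RNA per cell cannot be told apart.

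Across the set the differences were small. In the thalidomide library 38 of the 64 genes were higher than with vehicle (59.4%, against 41% of all 10905 genes tested) and 26 were lower. With equal FPKM totals 54 members (84.4%) and 65.4% of all genes were higher. Ratios were computed as thalidomide over vehicle after adding 1 to both FPKM values. Their median on the log2 scale was 0.06 in the set, with quartiles of −0.09 and 0.21, and −0.05 over all genes tested, with quartiles of −0.19 and 0.11. The deposited intervals of both libraries were separate, thalidomide above vehicle, for 24 members (37.5%, background 15.5%). They were separate with thalidomide below vehicle for 8 members (12.5%, background 26.9%). The median error of the log2 ratio was 0.04 for members and 0.06 for all genes. Ratios of equal size can therefore give separate intervals more often in the set than among all genes. The part of this in the shares given here and below was not tested. With equal FPKM totals 43 members were above (67.2%, against 32.1% of all genes) and 6 below (9.38%, against 10.4% of all genes). A 1.5-fold difference on the FPKM + 1 scale was reached upwards by 1 member (background 0.954%) and downwards by 0 of 64 (background 0.972%). At 1.2-fold, 11 members were higher (background 9.39%) and 5 were lower (background 14.5%).

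By family, all 3 KMT and all 7 CHD genes were higher with thalidomide, as were 9 of 11 KDM genes, with median log2 ratios of 0.46, 0.17 and 0.14. The SETD, KAT, HDAC and ARID families were mixed, with medians of 0.09, 0.03, 0.03 and 0.00. The SMARC family had 2 genes higher and 9 lower as deposited and a median of −0.10, which turned to 0.04 with equal FPKM totals, to 0.08 with equal totals without mitochondrially encoded and haemoglobin genes, and to 0.05 with inferred fragments in place of FPKM. Equal FPKM totals moved the median of all genes by 0.13. Both changes of totals raise every ratio, so genes above 0 as deposited could not change sign under them. All KMT and CHD genes also stayed above 0 with inferred fragments, which raised the median of all genes by 0.09. Inferred fragments come from the same deposited values, so this was not a separate check. Of the 64 members, 17 changed sign under at least 1 scaling, all from below to above 0.

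**Figure D1:**
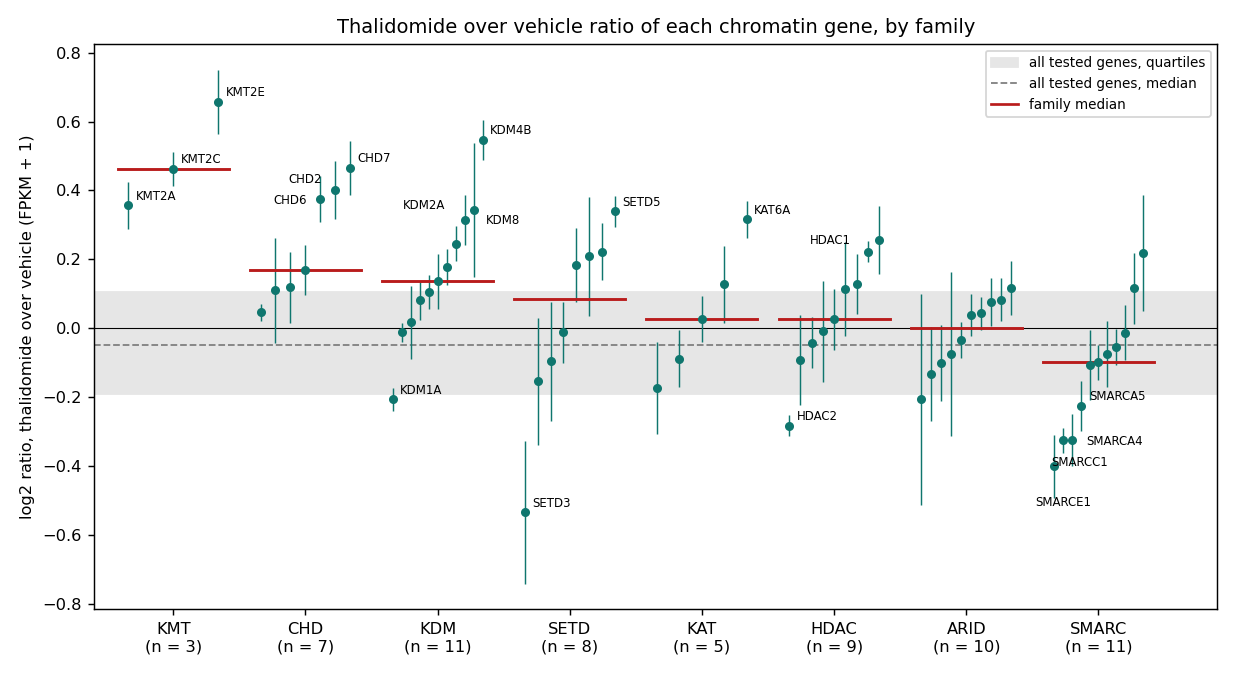
Log2 ratio of thalidomide over vehicle (y axis, on the FPKM + 1 scale) for the 64 members at 1 FPKM or more, grouped by family on the x axis. Bars span 2 propagated errors each way, red lines are family medians, and the grey band and dashed line are the quartiles and median of all 10905 genes tested. KMT, CHD and KDM genes lie mostly above the band's centre and the lowest SMARC genes lie between −0.40 and −0.22.

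The H3K4 methyltransferase group had the highest median ratio of the 11 role groups. It includes KMT2E, a relative of the MLL enzymes without an established activity of this kind. All 5 members of this group (KMT2A, KMT2C, KMT2E, SETD1B and SETD7) were higher with thalidomide, against 41% of all genes tested. With equal FPKM totals 65.4% of all genes were higher. Each of the 5 members had separate intervals (background 15.5%), and their median log2 ratio was 0.36. Their FPKM summed to 67.2 with thalidomide and 47.7 with vehicle, a difference carried mostly by KMT2E. Without KMT2E the sum was 32.7 FPKM with thalidomide and 26.2 FPKM with vehicle, and the median log2 ratio was 0.29. KMT2C, which adds a single methyl group to H3K4 at enhancers (chromosome 2, 6528611 to 6717633 in galGal4), had 6.10 FPKM with thalidomide (interval 5.94 to 6.26), against 4.15 FPKM with vehicle (4.01 to 4.28). Its log2 ratio was 0.46 ± 0.02. The library with thalidomide was the high one and the intervals were well apart. KMT2A, the MLL1 methyltransferase that maintains HOX gene expression (chromosome 24, 4343441 to 4373793), had 4.92 FPKM with thalidomide and 3.62 FPKM with vehicle (0.36 ± 0.03). SETD1B, which trimethylates H3K4 at promoters, had 2.80 FPKM with thalidomide and 2.35 FPKM with vehicle (0.18 ± 0.05), and SETD7, which monomethylates H3K4 and several other proteins, had 18.9 FPKM with thalidomide and 16.0 FPKM with vehicle (0.22 ± 0.04). In each pair the thalidomide library was higher.

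KMT2E had the highest ratio of the whole set and was the member past 1.5-fold. It encodes a SET and PHD domain protein related to the MLL family, for which no methyltransferase activity of its own is established. At its locus on chromosome 1 (13575018 to 13627041) it had 34.5 FPKM with thalidomide (interval 33.0 to 36.1), against 21.5 FPKM with vehicle (20.5 to 22.6), a log2 ratio of 0.66 ± 0.05. The fragments inferred from the intervals differed less than the FPKM did, 1917 with thalidomide and 1686 with vehicle. This is 13.7% more fragments for a 60.4% higher FPKM, and with fragments in place of FPKM the log2 ratio was 0.19. Inferred fragments per FPKM were 55.5 with thalidomide and 78.3 with vehicle for this gene, a ratio of 0.709, where the median ratio over the set was 1.07. It was the lowest ratio of this kind in the set. Assignment of fragments to alternative transcripts can move an FPKM and widen its interval, and its part here was not tested.

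Of the other SET domain genes, 2 were higher and 4 lower as deposited, where 41% of all genes were higher. With equal FPKM totals 4 were higher and 2 lower, where 65.4% of all genes were higher. SETD5, whose protein is found with the HDAC3 corepressor complex (chromosome 12, 11367736 to 11404678), had 42.1 FPKM with thalidomide, against 33.1 FPKM with vehicle (0.34 ± 0.02). SETD8, which monomethylates lysine 20 of histone H4, had 11.7 FPKM with thalidomide and 9.97 FPKM with vehicle (0.21 ± 0.09), and its intervals overlapped. SETD2, the enzyme of H3K36 trimethylation in transcribed genes, was nearly level, with 22.1 FPKM with thalidomide and 22.3 FPKM with vehicle (−0.01 ± 0.04). SETD3, a methyltransferase of actin and not mainly of histones (chromosome 5, 47783078 to 47906765), had the lowest ratio of the set. It had 1.47 FPKM with thalidomide (interval 1.21 to 1.73), against 2.57 FPKM with vehicle (2.22 to 2.93), from 131 inferred fragments with thalidomide and 212 with vehicle (−0.53 ± 0.10). Adding 1 shrinks this ratio: with 0.1 added it was −0.77, past 1.5-fold. SETD4 (−0.15 ± 0.09) and SETD9 (−0.10 ± 0.09) had overlapping intervals.

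Demethylases outside the H3K4 group were higher with thalidomide in all 8 cases, against 41% of all genes tested (65.4% with equal FPKM totals). Intervals were separate for 7 of them (87.5%, background 15.5%), and the median log2 ratio of the 8 genes was 0.21. The median error of these ratios was 0.03, against 0.06 for all genes. KDM4B, which removes methyl groups from lysines 9 and 36 of histone H3 (chromosome 28, 4512762 to 4588636), stood highest. It had 18.1 FPKM with thalidomide (interval 17.6 to 18.6), against 12.1 FPKM with vehicle (11.7 to 12.5), a log2 ratio of 0.55 ± 0.03 from 5700 inferred fragments with thalidomide and 3514 with vehicle. Its close relative KDM4A differed less, with 29.7 FPKM with thalidomide and 27.6 FPKM with vehicle (0.11 ± 0.02). KDM3A, an H3K9 demethylase, had 33.1 FPKM with thalidomide and 27.8 FPKM with vehicle (0.25 ± 0.03), and its paralogue KDM3B had 18.6 FPKM with thalidomide and 16.3 FPKM with vehicle (0.18 ± 0.03). KDM2A and KDM2B bind CpG islands and demethylate H3K36. KDM2A, on an unplaced scaffold, had 18.4 FPKM with thalidomide and 14.6 FPKM with vehicle (0.31 ± 0.04), and KDM2B had 9.24 FPKM with thalidomide and 8.31 FPKM with vehicle (0.14 ± 0.04). KDM8, a JmjC domain protein, rested on few fragments, 405 with thalidomide and 290 with vehicle, and had 8.37 FPKM with thalidomide and 6.38 FPKM with vehicle (0.34 ± 0.10). KDM7A had the ratio nearest to 0 among these demethylases, with 7.32 FPKM with thalidomide and 7.22 FPKM with vehicle (0.02 ± 0.05).

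Of the 3 H3K4 demethylases, 1 had separate intervals above vehicle, 1 below, and 1 overlapping. Over all genes 15.5% were separate above vehicle and 26.9% below. KDM1A and KDM5B exceeded a mean of 50 FPKM, where 11.4% of all genes were higher and the median of all genes was −0.21. KDM1A, the flavin-dependent demethylase LSD1 of the CoREST complex (chromosome 23, 1686690 to 1716555), had 54.4 FPKM with thalidomide (interval 53.5 to 55.3), against 62.8 FPKM with vehicle (61.8 to 63.9), a log2 ratio of −0.21 ± 0.02. KDM5B, which removes methyl groups from trimethylated H3K4, was the most abundant demethylase, with 75.7 FPKM with thalidomide and 76.3 FPKM with vehicle, and its intervals overlapped (−0.01 ± 0.01). Its paralogue KDM5A had 19.5 FPKM with thalidomide and 18.4 FPKM with vehicle (0.08 ± 0.03), with intervals just separate. Together the 3 genes held 149.6 FPKM with thalidomide and 157.5 FPKM with vehicle as deposited, but 157.6 FPKM with thalidomide and 149.5 FPKM with vehicle with equal FPKM totals, so the direction of this sum was set by the scaling. The sum of the H3K4 methyltransferase group without KMT2E was 34.5 FPKM with thalidomide and 24.8 FPKM with vehicle at equal totals. It was already higher with thalidomide as deposited, and this scaling raises thalidomide over vehicle, so its direction could not turn.

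**Figure D2:**
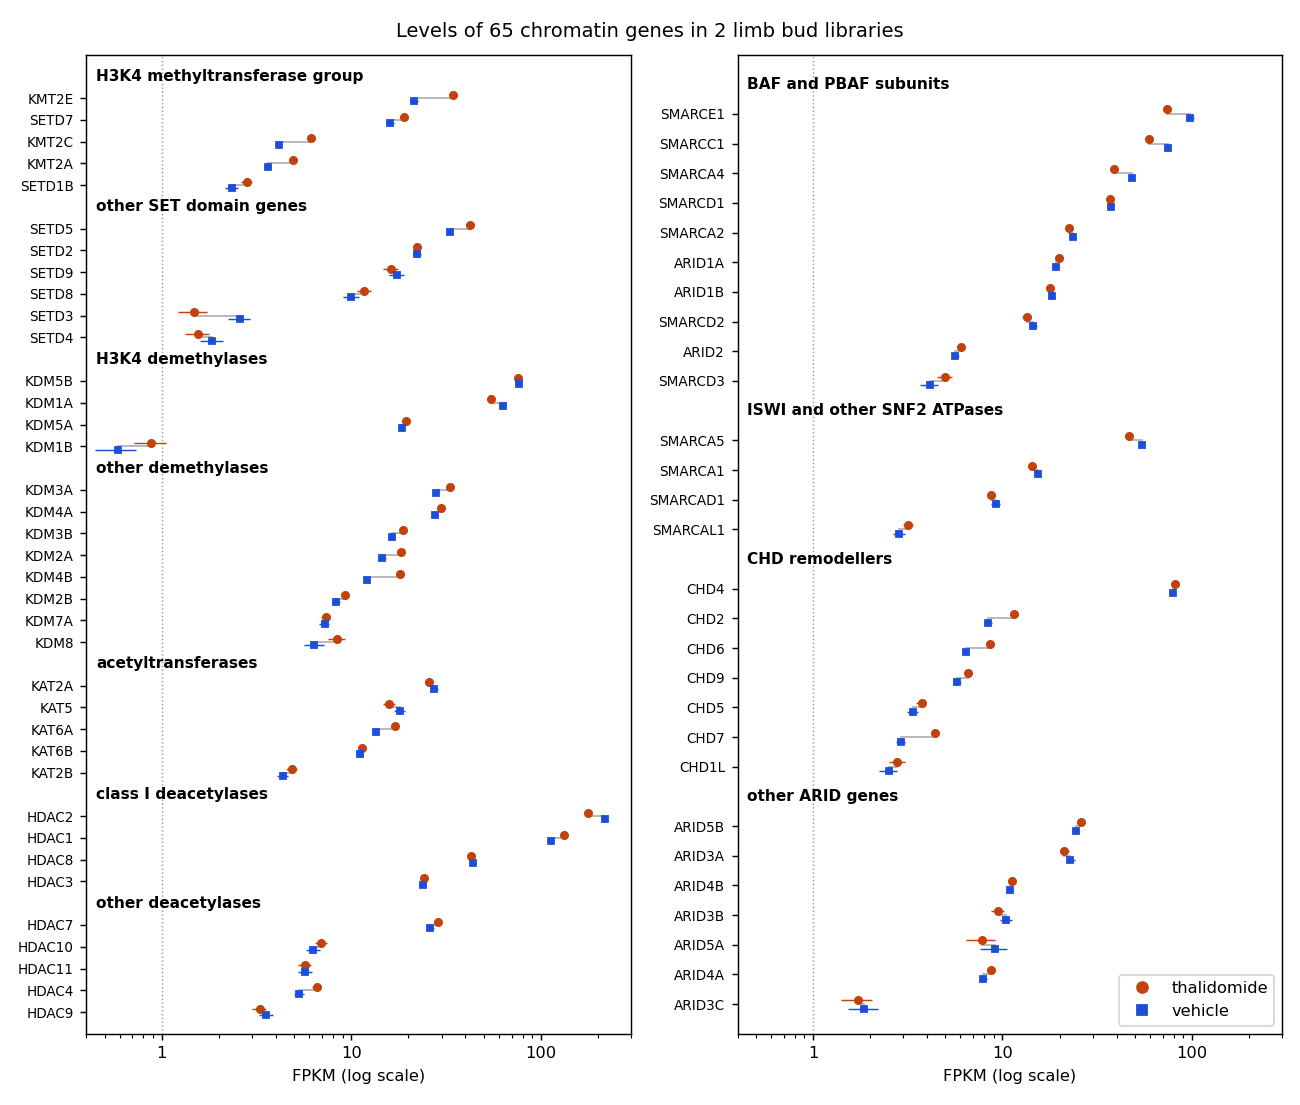
FPKM of all 65 genes (x axis, log scale) in the thalidomide library (circles) and the vehicle library (squares), grouped by role, with the deposited confidence limits as bars and a dotted line at 1 FPKM. HDAC2 and HDAC1 are the most abundant, and the circle lies right of the square for all members of the H3K4 methyltransferase, other demethylase and CHD groups.

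Among deacetylases the most abundant pair, HDAC1 and HDAC2, went in opposite directions. Both exceeded a mean of 50 FPKM. Of the 1104 genes that abundant, 11.4% were higher with thalidomide, and their ratios centred on −0.21. HDAC2, at −0.28, lay nearer to this centre than HDAC1, at 0.22, so a lower value alone does not set HDAC2 apart. HDAC1 and HDAC2 are class I enzymes that share the NuRD, Sin3 and CoREST complexes. HDAC1 (chromosome 23, 5075963 to 5089294) had 132 FPKM with thalidomide (interval 130.1 to 133.9), against 113 FPKM with vehicle (111 to 115), a log2 ratio of 0.22 ± 0.02. HDAC2 (chromosome 3, 64239389 to 64261685) had 178 FPKM with thalidomide (175 to 181), against 217 FPKM with vehicle (214 to 220.1), a log2 ratio of −0.28 ± 0.02. HDAC1 made up 42.5% of their summed FPKM with thalidomide and 34.2% with vehicle. This share compares genes within a library and does not depend on the scaling between libraries. The summed level of both was 310.2 FPKM with thalidomide and 329.9 FPKM with vehicle as deposited, and 326.9 FPKM with thalidomide and 313 FPKM with vehicle with equal FPKM totals. The other class I genes differed by less than their intervals: HDAC3, the enzyme of the NCoR complexes, had 24.2 FPKM with thalidomide and 23.7 FPKM with vehicle (0.03 ± 0.04), and HDAC8 had 42.5 FPKM with thalidomide and 43.8 FPKM with vehicle (−0.04 ± 0.04).

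The class IIa deacetylases shuttle between nucleus and cytoplasm. As deposited 2 of them were higher and 1 lower, where 41% of all genes were higher. With equal FPKM totals all 3 were higher, where 65.4% of all genes were higher. HDAC4, a regulator of cartilage maturation, had 6.56 FPKM with thalidomide and 5.32 FPKM with vehicle (0.26 ± 0.05), with separate intervals. HDAC7 had 28.6 FPKM with thalidomide and 26.1 FPKM with vehicle (0.13 ± 0.04), its intervals just separate, and HDAC9 had 3.28 FPKM with thalidomide and 3.56 FPKM with vehicle (−0.09 ± 0.07, or 0.02 with equal totals), its intervals overlapping. HDAC10 (0.11 ± 0.07) and HDAC11 (−0.01 ± 0.07) had overlapping intervals.

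Of the 5 acetyltransferases, KAT6A alone had separate intervals, above vehicle (20%, background 15.5%). It is the catalytic subunit of a MYST family complex that acts at HOX genes (chromosome 22, 2667825 to 2695432), and had 17.0 FPKM with thalidomide (interval 16.6 to 17.4), against 13.5 FPKM with vehicle (13.1 to 13.9), a log2 ratio of 0.32 ± 0.03. Its paralogue KAT6B had 11.4 FPKM with thalidomide and 11.1 FPKM with vehicle (0.03 ± 0.03). The intervals of KAT6B, KAT2A (25.7 FPKM with thalidomide and 27.4 FPKM with vehicle, −0.09 ± 0.04), KAT2B (0.13 ± 0.06) and KAT5 (−0.17 ± 0.07) overlapped. KAT2A and KAT2B are the GCN5 and PCAF subunits of the SAGA and ATAC coactivators, and KAT5 is TIP60, an acetyltransferase of DNA repair and transcription. The locus of KAT5 is a scaffold stretch of 2688 bases.

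All 7 CHD remodellers were higher with thalidomide, against 41% of all genes, or 65.4% with equal FPKM totals. Intervals were separate for 5 of them (71.4%, background 15.5%). CHD7, which binds enhancers and is mutated in CHARGE syndrome in humans (chromosome 2, 112612964 to 112699976), had 4.39 FPKM with thalidomide (interval 4.19 to 4.58), against 2.90 FPKM with vehicle (2.74 to 3.06). Its log2 ratio was 0.47 ± 0.04, from 2107 inferred fragments with thalidomide and 1281 with vehicle. The related CHD6 (chromosome 20, 650631 to 698519) had 8.58 FPKM with thalidomide and 6.39 FPKM with vehicle (0.38 ± 0.03), and CHD9 had 6.61 FPKM with thalidomide and 5.77 FPKM with vehicle (0.17 ± 0.04). Together these 3 genes of one CHD subfamily held 19.6 FPKM with thalidomide and 15.1 FPKM with vehicle. CHD2, a remodeller of transcribed genes (chromosome 10, 14112774 to 14149142), had 11.4 FPKM with thalidomide and 8.42 FPKM with vehicle (0.40 ± 0.04). CHD4, the ATPase of the NuRD complex and the most abundant CHD gene, differed far less, with 81.7 FPKM with thalidomide and 79.1 FPKM with vehicle (0.05 ± 0.01). The intervals of CHD5 (0.12 ± 0.05) and of CHD1L (0.11 ± 0.08), a remodeller activated in DNA repair, overlapped.

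The BAF and PBAF complexes, the vertebrate relatives of yeast SWI/SNF, included some of the lowest ratios of the set. SMARCE1, SMARCC1 and SMARCA4 were lower with thalidomide with separate intervals, and the other 7 BAF or PBAF genes had overlapping intervals. This share of 30% was near the 26.9% of all genes with separate intervals below vehicle. SMARCE1 and SMARCC1 exceeded a mean of 50 FPKM, where 11.4% of all genes were higher and their median was −0.21. As deposited 7 of the 10 genes were lower and 3 higher, and with equal FPKM totals 3 were lower and 7 higher. Over all genes 41% were higher as deposited and 65.4% with equal FPKM totals. The 3 named genes stayed lower under every scaling. SMARCC1 (BAF155), a core scaffold subunit (chromosome 2, 771101 to 833143), had 59.4 FPKM with thalidomide (interval 58.2 to 60.6), against 74.6 FPKM with vehicle (73.3 to 76.0), a log2 ratio of −0.32 ± 0.02 from 10442 inferred fragments with thalidomide and 12564 with vehicle. SMARCA4 (BRG1), one of the alternative ATPases, had 38.6 FPKM with thalidomide (37.0 to 40.1), against 48.5 FPKM with vehicle (46.8 to 50.3), a log2 ratio of −0.32 ± 0.04. Its locus in the files is a scaffold stretch of 4398 bases, so the value may rest on part of the gene. The other ATPase, SMARCA2 (BRM), had 22.6 FPKM with thalidomide and 23.5 FPKM with vehicle (−0.05 ± 0.03), and its share of the summed FPKM of both ATPases was 36.9% with thalidomide and 32.6% with vehicle.

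SMARCE1 (BAF57), a DNA-binding subunit (chromosome 27, 4481408 to 4498265), had the lowest ratio of the SMARC family. It had 73.6 FPKM with thalidomide (interval 70.2 to 77.0), against 97.4 FPKM with vehicle (93.1 to 101.8), a log2 ratio of −0.40 ± 0.05. Here too the inferred fragments did not follow the FPKM, with 1900 with thalidomide and 1975 with vehicle. Fragments per FPKM were 25.8 with thalidomide and 20.3 with vehicle, a ratio of 1.27 that was the highest in the set, and with fragments in place of FPKM the log2 ratio was −0.06. The variable subunits had overlapping intervals, and all 3 were higher with equal FPKM totals, at 0.13 for SMARCD1, 0.03 for SMARCD2 and 0.34 for SMARCD3. As deposited SMARCD1 had 36.8 FPKM with thalidomide and 37.2 FPKM with vehicle (−0.01 ± 0.04), SMARCD2 had 13.4 FPKM with thalidomide and 14.5 FPKM with vehicle (−0.11 ± 0.05), and SMARCD3, of the heart and muscle form of BAF, had 4.97 FPKM with thalidomide and 4.12 FPKM with vehicle (0.22 ± 0.08). The large ARID subunits ARID1A (19.8 FPKM with thalidomide, 19.2 FPKM with vehicle, 0.04 ± 0.02), ARID1B (−0.03 ± 0.03) and ARID2 of PBAF (0.08 ± 0.03) were close to 0.

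**Figure D3:**
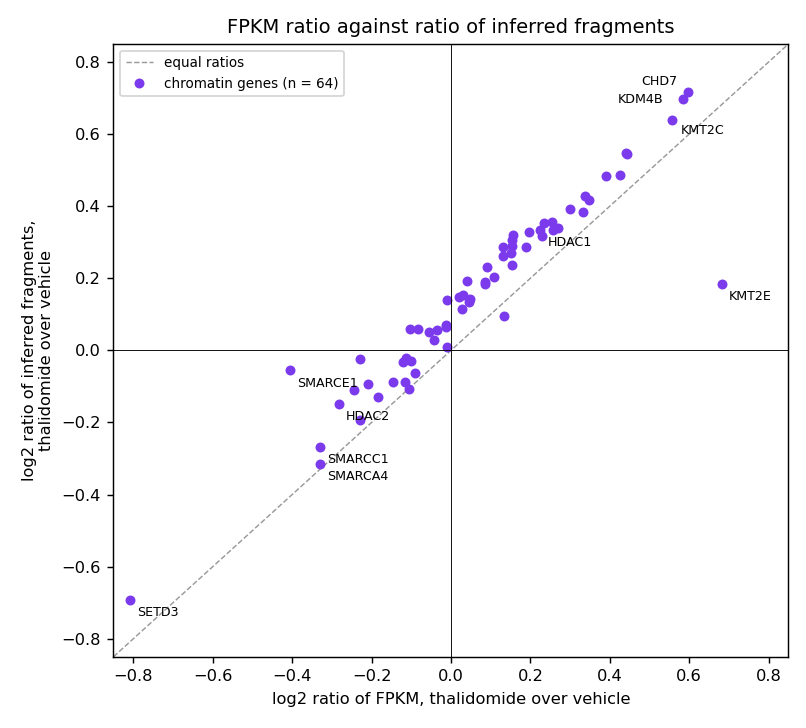
Log2 ratio of thalidomide over vehicle of the fragments inferred from the deposited intervals (y axis) against that of FPKM with nothing added (x axis) for the 64 members at 1 FPKM or more, with a dashed line where both are equal. Most genes lie in a band just above the line, and KMT2E, with 13.7% more fragments for a 60.4% higher FPKM, and SMARCE1 lie off it.

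The ISWI ATPases slide nucleosomes into regular spacing. SMARCA5 (SNF2H) (chromosome 4, 30063268 to 30084414) had 46.6 FPKM with thalidomide (interval 44.9 to 48.3), against 54.6 FPKM with vehicle (52.7 to 56.6), a log2 ratio of −0.22 ± 0.04. SMARCA1 (SNF2L) had 14.3 FPKM with thalidomide and 15.4 FPKM with vehicle (−0.10 ± 0.03), also with separate intervals, though its sign turned with equal FPKM totals. SMARCAD1 (−0.07 ± 0.05) and SMARCAL1, which restarts stalled replication forks (0.12 ± 0.05), had overlapping intervals.

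The remaining ARID genes encode DNA-binding proteins, of which ARID4A and ARID4B work with the Sin3 deacetylase complex. ARID4A had 8.68 FPKM with thalidomide and 7.92 FPKM with vehicle (0.12 ± 0.04). It was the only ARID gene with separate intervals, 10% of that family (background 15.5% above vehicle), and these were just separate. ARID5B, a partner of the demethylase PHF2 and the most abundant ARID gene, had 25.8 FPKM with thalidomide and 24.3 FPKM with vehicle (0.08 ± 0.03). ARID3B had 9.44 FPKM with thalidomide and 10.4 FPKM with vehicle (−0.13 ± 0.07). ARID5A, on a scaffold stretch of 806 bases, had 7.79 FPKM with thalidomide and 9.13 FPKM with vehicle (−0.21 ± 0.15), from 133 inferred fragments with thalidomide and 152 with vehicle. The other 3, ARID3A, ARID3C and ARID4B, lay between −0.10 and 0.04.

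Abundance and inferred fragments per FPKM moved with these ratios. Among the 8 members at a mean of 50 FPKM or more, 2 were higher (HDAC1 and CHD4), against 11.4% of all 1104 genes there. The median log2 ratio of these members was −0.21, the same as the −0.21 of all genes in that range. Among the 30 members from 5 to 20 FPKM, 21 were higher, against 46.7% of all 4555 genes there. The median was 0.10 for these members and −0.02 for all genes there. Between 20 and 50 FPKM the 14 members had a median of 0.01, against −0.11 for 1863 genes, and below 5 FPKM the 12 members had 0.12, against 0.00 for 3239 genes. The members also had long loci, with a median span of 31.9 kb, against 13.4 kb for all genes tested. They had a median of 167 inferred fragments per FPKM with vehicle, against 84.9. This measure rises with transcript length but also holds assignment error. It is computed from the vehicle values that also enter the ratio. Above 146 inferred fragments per FPKM lay 36 members, 28 of them higher with thalidomide, with a median of 0.12, against 0.02 for all 2723 genes there. From 84.9 to 146 lay 10 members, 5 of them higher, with a median of 0.05, against −0.03 for all genes. From 46.8 to 84.9 lay 13 members, 3 of them higher, with a median of −0.10, against −0.06 for all genes. Below 46.8 lay 5 members, 2 of them higher, with a median of −0.10, against −0.14 for all genes. Over the 64 members the ratio had a Spearman's rho of 0.461 with fragments per FPKM, 0.294 with locus span and −0.245 with mean FPKM. Across all genes tested these were 0.245, 0.149 and −0.261. These points are genes of the same 2 libraries and not independent replicates. The part of abundance and length in the family differences was not tested.

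**Figure D4:**
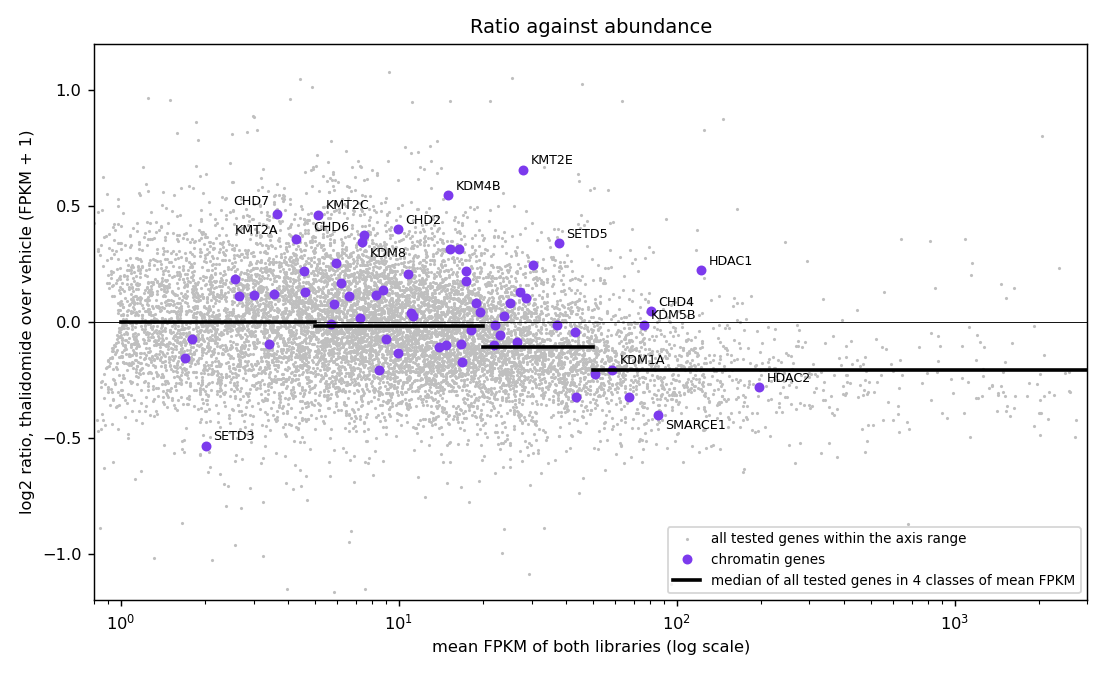
Log2 ratio of thalidomide over vehicle (y axis, FPKM + 1 scale) against mean FPKM of both libraries (x axis, log scale) for all genes tested (grey) and the 64 members (violet), with black lines at the median of all genes in 4 classes of mean FPKM. The medians of all genes go from 0.00 below 5 FPKM to −0.21 at 50 FPKM or more, HDAC1 lies above and HDAC2 below the line at their abundance, and 46 genes with ratios beyond 1.2 either way are not drawn.

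Chromatin genes with other names gave a wider view of the same machinery. Of 171 names in 10 lists, 125 matched a gene outside the set and 121 passed 1 FPKM. Of these, 60 were higher with thalidomide and 61 lower, with a median log2 ratio of 0.00, which turned to 0.14 with equal FPKM totals. Separate intervals were found with thalidomide above vehicle for 30 (24.8%, background 15.5%) and with thalidomide below vehicle for 43 (35.5%, background 26.9%). Methyltransferases and their partners had 10 genes higher and 7 lower of 17 with a median of 0.05, where 41% of all genes were higher. Separate intervals lay above vehicle for 6 (35.3%, background 15.5%) and below for 3 (17.6%, background 26.9%). With equal FPKM totals 12 were higher and 5 lower, with a median of 0.19, where 65.4% of all genes were higher. ASH1L, an H3K36 methyltransferase, had 11.6 FPKM with thalidomide and 6.76 FPKM with vehicle (0.70 ± 0.03), and DOT1L, the H3K79 methyltransferase, had 17.3 FPKM with thalidomide and 11.6 FPKM with vehicle (0.53 ± 0.03). SMYD2, a lysine methyltransferase of several proteins, was lowest of that list, with 9.37 FPKM with thalidomide and 13.2 FPKM with vehicle (−0.45 ± 0.07). The partners in that list went both ways as deposited. RBBP5 (0.27 ± 0.05) and PAXIP1 (0.23 ± 0.05) had separate intervals above vehicle. WDR5 (−0.21 ± 0.03) and DPY30 (−0.38 ± 0.08) had separate intervals below it, and those of ASH2L (−0.03 ± 0.05) overlapped.

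Polycomb genes, which silence developmental loci, were higher in 16 of 25 cases, with a median of 0.06, where 41% of all genes were higher. With equal FPKM totals 21 of 26 were higher, with a median of 0.21, where 65.4% of all genes were higher. CBX7, a Polycomb reader, had 2.69 FPKM with thalidomide and 1.03 FPKM with vehicle (0.86 ± 0.13), and JARID2, which guides the H3K27 methyltransferase complex, had 26.9 FPKM with thalidomide and 18.7 FPKM with vehicle (0.50 ± 0.03). EZH2, the catalytic subunit of that complex, was nearly level, with 7.67 FPKM with thalidomide and 7.30 FPKM with vehicle (0.06 ± 0.05), and PCGF1 was lowest, at −0.42 ± 0.09. Deacetylase and corepressor partners were higher in 13 of 21 cases with a median of 0.07, or in 16 of 21 with a median of 0.21 with equal FPKM totals. They ran from NCOR1, the nuclear receptor corepressor that activates HDAC3, with 14.9 FPKM with thalidomide and 7.26 FPKM with vehicle (0.95 ± 0.03), to the NAD-dependent deacetylase SIRT2, with 29.4 FPKM with thalidomide and 38.1 FPKM with vehicle (−0.36 ± 0.05).

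Acetyltransferases and partners with other names were lower in 9 of 13 cases (median −0.22), where 41% of all genes were higher. With equal FPKM totals 8 of 13 were lower (median −0.08), where 65.4% of all genes were higher. The list ran from ING4 at 0.42 ± 0.07 to TADA3, a SAGA subunit, with 16.9 FPKM with thalidomide and 23.9 FPKM with vehicle (−0.48 ± 0.07). The coactivators EP300 (12.7 FPKM with thalidomide, 11.8 FPKM with vehicle, 0.10 ± 0.03) and CREBBP (0.11 ± 0.03) were a little higher with thalidomide. Readers of histone marks were lower with thalidomide in all 5 cases, each with separate intervals and a median of −0.27, and all 5 but BRD3 exceeded 50 FPKM. Intervals were separate below vehicle for 26.9% of all genes, and at 50 FPKM or more 11.4% of all genes were higher and their median was −0.21. All 5 stayed lower under every scaling, with a median of −0.12 with equal FPKM totals. CBX3, a heterochromatin protein, had 72.1 FPKM with thalidomide and 99.6 FPKM with vehicle (−0.46 ± 0.02). BRD3 was the highest of the list at −0.18 ± 0.05.

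BAF partners named otherwise were lower in 8 of 10 cases (median −0.13), where 41% of all genes were higher. Intervals were separate below vehicle for 5 of them (50%, background 26.9%). With equal FPKM totals 5 were higher and 5 lower (median 0.02), where 65.4% of all genes were higher. The list ran from BRD7 of PBAF at 0.04 ± 0.04 to PHF10 of PBAF, with 15.3 FPKM with thalidomide and 18.8 FPKM with vehicle (−0.28 ± 0.06). The same shares of all genes, 41% and 65.4%, stand beside the lists that follow. Other remodellers were split, 7 higher and 8 lower, or 11 higher and 4 lower with equal FPKM totals. BPTF, the large subunit of the ISWI complex NURF, had 9.49 FPKM with thalidomide and 6.19 FPKM with vehicle (0.54 ± 0.03), against CHRAC1, a small histone-fold subunit of ISWI complexes, with 35.9 FPKM with thalidomide and 42.9 FPKM with vehicle (−0.25 ± 0.04). DNA methylation genes were 4 higher and 4 lower, or 6 higher and 2 lower with equal FPKM totals, from MBD4, a repair glycosylase (0.30 ± 0.07), to UHRF1, which brings DNMT1 to replicated DNA (−0.28 ± 0.03). Demethylases outside the prefix had 3 higher and 2 lower, or 4 higher and 1 lower with equal FPKM totals, from JMJD1C (0.33 ± 0.03) to JMJD4 (−0.25 ± 0.06), and the 2 arginine methyltransferases measured were PRMT7 (0.02 ± 0.08) and PRMT3 (−0.19 ± 0.06).

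**Figure D5:**
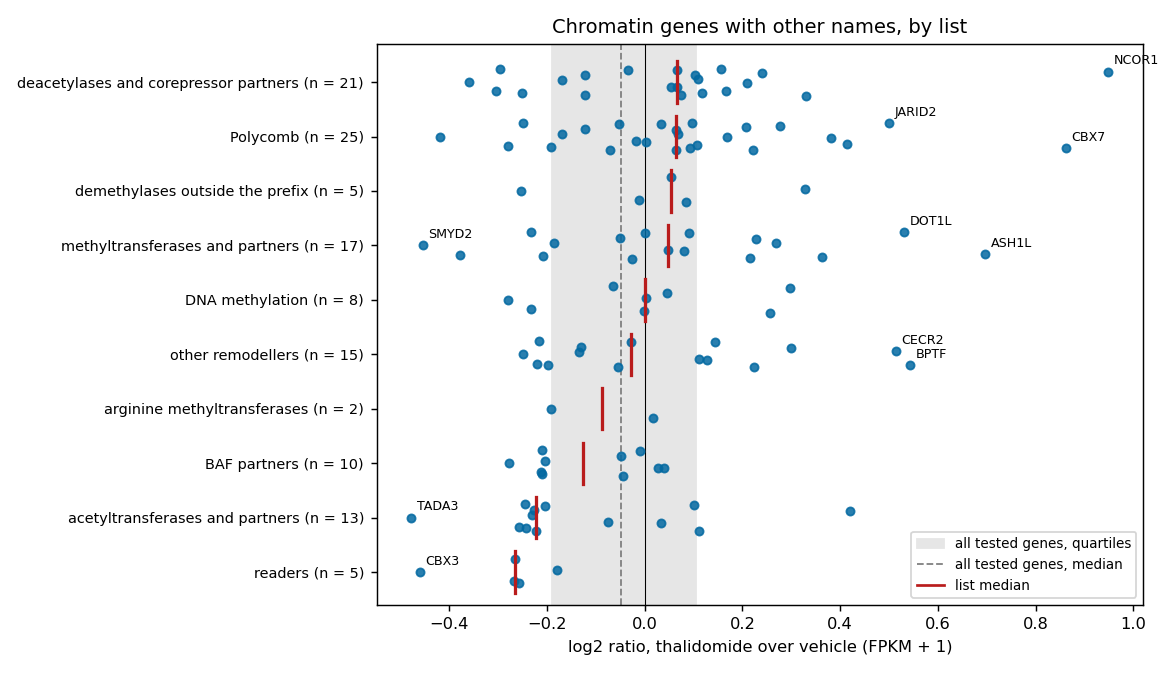
Log2 ratio of thalidomide over vehicle (x axis, FPKM + 1 scale) for 121 chromatin genes outside the set, by list (y axis), with a red line at each list's median and the quartiles and median of all genes tested in grey. NCOR1 (0.95), CBX7 (0.86) and ASH1L (0.70) are the 3 highest, and all 5 readers lie below 0.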

How the data were processed

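RNA-seq of 2 chick limb bud samples was used, 1 per treatment. Per the file headers, each deposited table holds FPKM per gene with lower and upper confidence limits, made by the authors. Tools and build named in the submitters' processing notes are STAR 2.4.2a, Cufflinks 2.2.1, Cuffdiff, bcl2fastq and galGal4. Annotation release and strand setting: not given in the sources used here.

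FPKM was summed over rows of 1 symbol (134 symbols, no member among them), which left 16736 genes, and 10905 with at least 1 FPKM in either library were kept. The log2 ratio was log2((thalidomide FPKM + 1)/(vehicle FPKM + 1)). The distance to the upper limit was read as 2 SD, both for the errors and for inferred fragments, (FPKM/SD) squared. A median member had limits 4.12% from its value with thalidomide and 4.49% with vehicle. With 1 library per treatment no test was run. Locus starts were raised by 1, since the files count from 0: end minus start was a multiple of 3 in 10 of 11 short coding loci. No sequence or exon structure was used here.

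The members and lists were chosen with earlier results of these data known. Described were the 12 highest and 12 lowest members, the extremes and most abundant of each family, and preset genes, of which SMARCB1, KDM6A and KDM6B are not analysed here, and 1 other preset gene is not reported here. DOT1L, JARID2, RBBP5, PAXIP1, WDR5, DPY30 and ASH2L were named after their values were seen. Alternatives were other pseudocounts, filters and scalings, loci left unsummed, short or unplaced loci left out, and inferred fragments. The ratio was tested on simulated data. Python 3.11.15, pandas 2.3.3, numpy 2.4.6, scipy 1.17.1 and matplotlib 3.10.9 were used.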

Additional observations from a re-analysis of the deposited data

How the results depend on the processing

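Under 10 alternatives, the 38 members that were higher with thalidomide stayed above 0 under each that measured them, and 9 of the 26 lower members stayed below 0: SETD3, SETD4, SMARCE1, SMARCC1, SMARCA4, SMARCA5, HDAC2, KDM1A and ARID5A. The other 17 changed sign under at least 1 scaling, all from below to above 0. Centring, equal totals, totals without mitochondrially encoded and haemoglobin genes, and inferred fragments raised the median of all genes by 0.05, 0.13, 0.16 and 0.09. Members above 0 could therefore hardly change sign, so the 38 and the 9 did not face the same challenge. With equal FPKM totals, the set's median was 0.20 and those of ARID, CHD, HDAC, KAT, KDM, KMT and SMARC were 0.14, 0.30, 0.17, 0.17, 0.27, 0.59 and 0.0436, and that of the other chromatin genes was 0.14. At these totals 43 members had separate intervals upwards (background 32.1%), and 3 were past 1.5-fold higher (background 2.21%). Rescaled without mitochondrially encoded and haemoglobin genes, the set's median was 0.24, those of ARID, CHD, HDAC, KAT, KDM, KMT, SETD and SMARC were 0.18, 0.33, 0.21, 0.20, 0.31, 0.62, 0.25 and 0.0803, that of the other chromatin genes was 0.18, and 4 members were past 1.5-fold higher (background 2.78%). These scalings moved the median of all genes by 0.13 and 0.16, so the set's median lay 0.12 above that of all genes under both, against 0.11 as deposited. Each scaling multiplies a whole library by the same factor and shifts all ratios nearly alike, so this gap could hardly change.

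With inferred fragments in place of FPKM, an alternative chosen after seeing the data, the set's median was 0.17 (all genes 0.04), and those of ARID, CHD, KAT, KDM, KMT and SMARC were 0.0949, 0.33, 0.15, 0.27, 0.55 and 0.0501. By fragments 3 members were past 1.5-fold higher (background 3.75%) and 1 lower (background 1.29%). Centred on all genes, 2 members were past 1.5-fold higher (background 1.29%). A pseudocount of 0.1 gave a KMT median of 0.55 and 1 member past 1.5-fold lower (background 1.79%). A filter of 5 FPKM left 4 CHD and 2 KMT genes with medians of 0.27 and 0.56. A call at 2 propagated errors in place of separate intervals gave 31 members higher and 12 lower. The share of all genes at this call was not computed, so these counts have no background beside them. Leaving out members on unplaced scaffolds, or loci under 300 bases, moved no family median by more than 2 median errors. No paired analysis was possible because each treatment has 1 library.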

Other observations

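A pair of members stood out by how FPKM and inferred fragments differed between the libraries, a comparison made after their values were seen. KMT2E had a 60.4% higher FPKM with thalidomide on 13.7% more inferred fragments. SMARCE1 differed by −24.5% in FPKM, thalidomide against vehicle, and by −3.79% in inferred fragments. Over all 10792 genes with 10 or more inferred fragments in both libraries, the ratio of fragments per FPKM, thalidomide over vehicle, had a median of 1.07 and ran from 0.998 at percentile 5 to 1.13 at percentile 95, against 0.709 for KMT2E and 1.27 for SMARCE1. The deposited gene tables give no transcript values, so transcripts were not analysed here.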
